A study of Mus musculus with 15 samples.

Results

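Respiratory complex I was followed through its nuclear genes in mouse liver, taken as every gene with a single symbol in the array's annotation that begins with Ndufa, Ndufb, Ndufc, Ndufs or Ndufv and a digit, or is Ndufab1. The rule gave 36 of the 19938 genes measured, each read from its brightest transcript cluster, the set of probes that stands for a gene on the array. They comprised 10 genes of the N module, 5 of the Q module, 9 of the proximal and 10 of the distal membrane arm, and 2 further matches, Ndufa4 and Ndufa4l2. Ndufa4 is now assigned to complex IV, and Ndufa4l2 is its paralog. Of the core subunits encoded in the nucleus, 6 were among the 36, namely Ndufs1, Ndufs3, Ndufs7, Ndufs8, Ndufv1 and Ndufv2.

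The livers came from male C57BL/6J mice fed 1 of 3 diets. The first labelled group received an atherogenic and high-fat diet with 3% branched-chain amino acids (leucine, isoleucine and valine) for 60 weeks up to an age of 68 weeks (Ath+HF+BCAA 68w), and the second the same diet and time without the supplement (Ath+HF 68w). Ath+HF+BCAA 38w and Ath+HF 38w mice were fed the same diets for 30 weeks up to an age of 38 weeks. The arrays of basal diet mice analysed here are of 38 weeks alone (basal 38w), so that age, time on the diet and any difference between array runs cannot be told apart wherever a 68w group is set against a 38w group. RNA of frozen liver tissue was measured on 15 arrays of the type GeneChip Mouse Gene 1.0 ST, 3 in each group. The labels do not say whether each array is a separate mouse, nor whether the 68w tissue held tumor, and the p-values measure the spread between arrays.

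Complex I is the entry point of the mitochondrial respiratory chain. Its matrix arm oxidizes NADH in the N module and passes the electrons over iron-sulfur clusters to ubiquinone in the Q module, while its membrane arm pumps protons. Core subunits carry out these reactions, accessory subunits surround and stabilize them, and the membrane core is encoded by mitochondrial DNA. The liver depends on this chain for fatty acid oxidation, gluconeogenesis and urea synthesis.

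Hepatocyte markers were bright in all arrays, with a mean RMA log2 signal of 13.08 to 13.26 over 12 markers. RMA is the method that corrects, normalizes and summarizes the probe signals, and all values below are on its log2 scale unless given as percent. Markers of other cells differed between the labelled groups. The summed linear signal of 12 macrophage markers was 24100 to 29700 in the Ath+HF+BCAA 68w arrays and 4190 to 4720 in the Ath+HF 68w arrays. It was 14700 to 22100 in Ath+HF+BCAA 38w, 18200 to 21500 in Ath+HF 38w and 7730 to 7820 in basal 38w arrays. The Ath+HF 68w arrays thus lay below the basal 38w arrays. Of the 12 markers, 6 were lower and 1 higher there by limma, at an adjusted p under 0.05, where 19.1% of all genes were lower and 19% higher. Stellate cell markers averaged 9.33 to 9.37 in the Ath+HF+BCAA 68w arrays and 8.05 to 8.22 in the Ath+HF 68w arrays, and cholangiocyte markers 7.54 to 7.62 against 6.70 to 6.81. The groups are named here by the labels of their arrays. Exchanging the labels of the 68w groups would turn every sign between them and exchange their results against basal 38w. It would also change the comparisons between ages and the test of the supplement at 68w against 38w. An exchange is not the only open point. In the Ath+HF 38w arrays, 10 of the 12 macrophage markers were called higher than in basal 38w arrays and 0 lower. Of 10 stellate cell markers, 6 were higher and 0 lower there, against 0 higher and 2 lower in the Ath+HF 68w arrays. Whether the Ath+HF 68w arrays are of mice on that diet was not tested, so their results are tied to the label. In bulk tissue, fewer cells of a type and less RNA per cell cannot be told apart, and the part of other cell types in the results below was not tested.

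The complex I genes were lowest in the Ath+HF+BCAA 68w arrays. The median signal of the 36 genes was 9.54, 9.47 and 9.83 in these 3 arrays and 10.40, 10.35 and 10.27 in the Ath+HF 68w arrays. It was 10.32 to 10.43 in Ath+HF+BCAA 38w, 10.41 to 10.43 in Ath+HF 38w and 10.55 to 10.69 in basal 38w arrays. The Ath+HF+BCAA 68w arrays did not overlap with any other group, and the basal 38w arrays lay above all others. Over the 15 arrays, the median Pearson r between 2 of the genes was 0.594, and 80.8% of the 630 pairs were above 0, as a description of points that share arrays and groups. The signals of Ndufb5, an accessory subunit of the distal arm, followed the mean of the other members most closely (r = 0.96 over 15 arrays), whereas Ndufb11 (r = -0.28), Ndufa4l2 (r = -0.23) and Ndufv3 (r = -0.11) had values below 0.

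**Figure D1:**
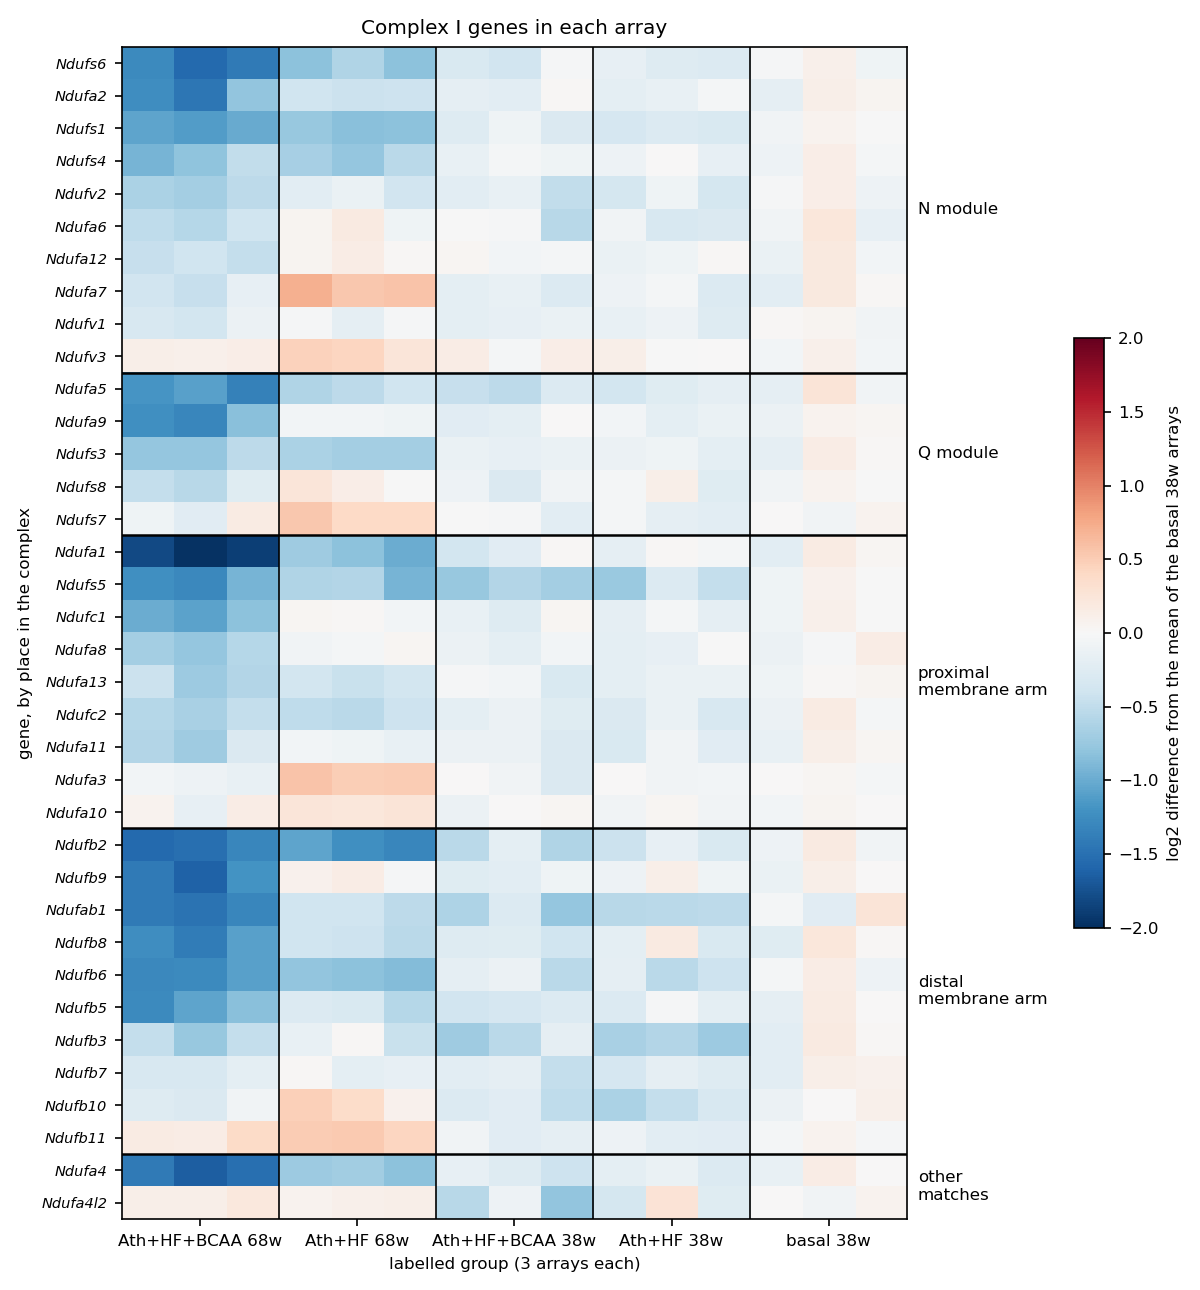
Each complex I gene (vertical axis, by place in the complex) in each of the 15 arrays (horizontal axis, 3 per labelled group), colored by the log2 difference from the mean of the basal 38w arrays. The arrays labelled Ath+HF+BCAA 68w are blue for most genes in every module, with Ndufa1 the darkest, while Ndufa7, Ndufa3, Ndufb11 and Ndufs7 are red in the Ath+HF 68w arrays.

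Against basal diet, most complex I genes were lower in the Ath+HF+BCAA 68w arrays, in every module. By limma, with p-values adjusted over all genes after Benjamini-Hochberg and called at an adjusted p under 0.05, 28 of the 36 fell and 0 rose, where 21.8% of all genes were called lower and 22.9% higher. The median log2 difference was -0.64 for the members and 0.01 for all genes. With dim genes (mean under 7.38) left out, 3431 of 9969 genes were called lower and 2974 higher. The median was then -0.67 for the 35 members left and -0.03 for the genes left. All 3 arrays lay below all 3 basal 38w arrays for 28 members, against 27.1% of all genes. By module, 9 of 10 genes fell in the N module, 4 of 5 in the Q module, 7 of 9 in the proximal arm and 7 of 10 in the distal arm, whose median was -1.13. With the array medians set equal, which moved the median of all genes by 0.19, to -0.18, the median of the members was -0.83.

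The core subunits fell to different degrees. Ndufs1, the largest core subunit, which carries iron-sulfur clusters of the N module, measured 9.29, 9.23 and 9.33 in the Ath+HF+BCAA 68w arrays, against 10.28, 10.41 and 10.34 in basal 38w arrays. The groups lay far apart, at a log2 difference of -1.06 (SE 0.08, limma adjusted p = 1.26e-07) or 48.0% of the basal level. Ndufs3 of the Q module was at -0.69 (SE 0.10, limma adjusted p = 3.87e-05), and Ndufv2, an iron-sulfur subunit beside the NADH site, at -0.61 (SE 0.12, limma adjusted p = 0.000522). Ndufs8, which holds iron-sulfur clusters on the way to ubiquinone, was at -0.42 (SE 0.12, limma adjusted p = 0.00762). Ndufv1, which binds FMN and oxidizes NADH, was at -0.27 (SE 0.09, limma adjusted p = 0.0245), and its call was lost without basal 38w replicate 1 or 2 (adjusted p = 0.0582 and 0.0664) or Ath+HF+BCAA 68w replicate 1 or 2 (adjusted p = 0.0824 and 0.109), with quantile normalization (-0.18, adjusted p = 0.114) and with both groups fitted alone (adjusted p = 0.0592). Ndufs7, the subunit with the last cluster before ubiquinone, was at -0.05 (95% interval -0.28 to 0.17), the core subunit that was not called.

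Accessory subunits had the largest falls. Ndufa1, a small subunit of the proximal arm, measured 7.48, 7.30 and 7.40 in the Ath+HF+BCAA 68w arrays, against 9.08, 9.44 and 9.33 in basal 38w arrays. No array of one group came within 1 log2 unit of the other, and the mean was at 27.0% of the basal level (log2 difference -1.89, SE 0.12, limma adjusted p = 2.05e-08). Ndufb9, a distal arm subunit of the LYR family that docks an acyl carrier protein, measured 10.06, 9.85 and 10.27 against 11.34, 11.58 and 11.48 in basal 38w arrays. Its groups did not overlap either (-1.41, SE 0.11, limma adjusted p = 1.43e-07, 37.6% of basal). Ndufb2 of the distal arm was at -1.46 (SE 0.13, limma adjusted p = 2.78e-07, 36.3% of basal). Ndufa5, an accessory subunit of the Q module, was at -1.21 (SE 0.12, limma adjusted p = 9.88e-07). The acyl carrier protein itself, Ndufab1, which also serves mitochondrial fatty acid synthesis, was at 38.0% of basal and Ndufs6, a zinc-binding N module subunit, at 37.7%. Of the 2 matches outside complex I, Ndufa4 measured 9.89, 9.66 and 9.80 against 11.15, 11.45 and 11.31 in basal 38w arrays (-1.52, SE 0.10, limma adjusted p = 2.7e-08). Ndufa4l2, known as a gene induced by hypoxia, was dim, with 6.80, 6.80 and 6.89 against 6.69, 6.62 and 6.75, and was not called (0.14, 95% interval -0.20 to 0.49). Among the least changed genes of their modules were Ndufa10 (0.02, 95% interval -0.18 to 0.22), Ndufv3 (0.12, -0.07 to 0.32) and Ndufb10 (-0.20, -0.46 to 0.06).

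In the Ath+HF 68w arrays, the same genes split. Against the same basal 38w arrays, 16 of the 36 fell and 5 rose by limma, where 19.1% of all genes were called lower and 19% higher. The median was -0.15 for the members and 0.05 for all genes. The counts lower and higher were 4 and 2 of 10 in the N module, 2 and 1 of 5 in the Q module, 4 and 1 of 9 in the proximal arm and 5 and 1 of 10 in the distal arm. The background matters, since 19 of the 36 were among the brightest 10% of genes. Without dim genes (mean under 7.38), 3481 of 9969 genes were called lower and 1837 higher, with a median of -0.11. Of the 35 members left, 16 were lower and 7 higher, with a median of -0.19. The members then lay at -0.08 from the median of the genes, against -0.20 with dim genes included. The scaling of the arrays bears on this split. With array medians set equal, 3 members were called higher and their median was -0.34, and of all genes 1191 were called higher and 6145 lower, against 3791 and 3812 with the deposited scaling.

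Ndufb2 of the distal arm fell most, to 7.54, 7.37 and 7.29 in the Ath+HF 68w arrays, against 8.50, 8.77 and 8.52 in basal 38w arrays (log2 difference -1.20, SE 0.13, limma adjusted p = 1.5e-05, 43.5% of basal). Ndufs1 measured 9.59, 9.50 and 9.53 against the basal 10.28, 10.41 and 10.34 (-0.80, SE 0.08, limma adjusted p = 1.5e-05). Ndufs3 was at -0.66, Ndufa1 at -0.84 and Ndufa4 at -0.74, each called with arrays that did not overlap. The 5 genes that rose were Ndufa7 (0.60, SE 0.12, limma adjusted p = 0.00107), Ndufa3 (0.53), Ndufb11 (0.49), Ndufs7 (0.44) and Ndufv3 (0.38), all accessory subunits but Ndufs7. Ndufs7 measured 12.71, 12.56 and 12.56 in the Ath+HF 68w arrays, all above the basal 12.17, 12.10 and 12.23 (limma adjusted p = 0.00514). With array medians set equal, Ndufs7 was at 0.25 (adjusted p = 0.0897) and Ndufv3 at 0.19 (adjusted p = 0.144), and neither was called. The lower calls of Ndufa2, Ndufab1, Ndufb5 and Ndufb8 were lost with quantile normalization (limma adjusted p = 0.125, 0.0538, 0.0625 and 0.068). Ndufc1 (0.00, 95% interval -0.21 to 0.22), Ndufa6 (0.05, -0.26 to 0.36), Ndufa9 (-0.07, -0.31 to 0.18) and Ndufb9 (0.07, -0.17 to 0.31) had the largest p in their modules. The core subunits Ndufs8 (0.13), Ndufv1 (-0.08) and Ndufv2 (-0.24) were not called.

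The comparisons of both 68w groups share their basal 38w arrays, and their calls are given side by side. Of the 36 genes, 16 were lower in both 68w groups, as were 11.4% of all genes, and 11 were called lower in the Ath+HF+BCAA 68w arrays and not called in the Ath+HF 68w arrays, as were 9.79% of all genes. Ndufa7 was called lower in the Ath+HF+BCAA 68w arrays and higher in the Ath+HF 68w arrays, against 0.552% of all genes, and its lower call (-0.34) was lost without basal 38w replicate 2 or 3 (adjusted p = 0.123 and 0.0669) or Ath+HF+BCAA 68w replicate 1 or 2 (0.0802 and 0.118). The other 4 genes that were higher in the Ath+HF 68w arrays were not called in the Ath+HF+BCAA 68w arrays, a share of the members close to the 9.96% of all genes. Ndufa10, Ndufa4l2, Ndufb10 and Ndufb7 were called in neither group, against 39.7% of all genes.

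**Figure D2:**
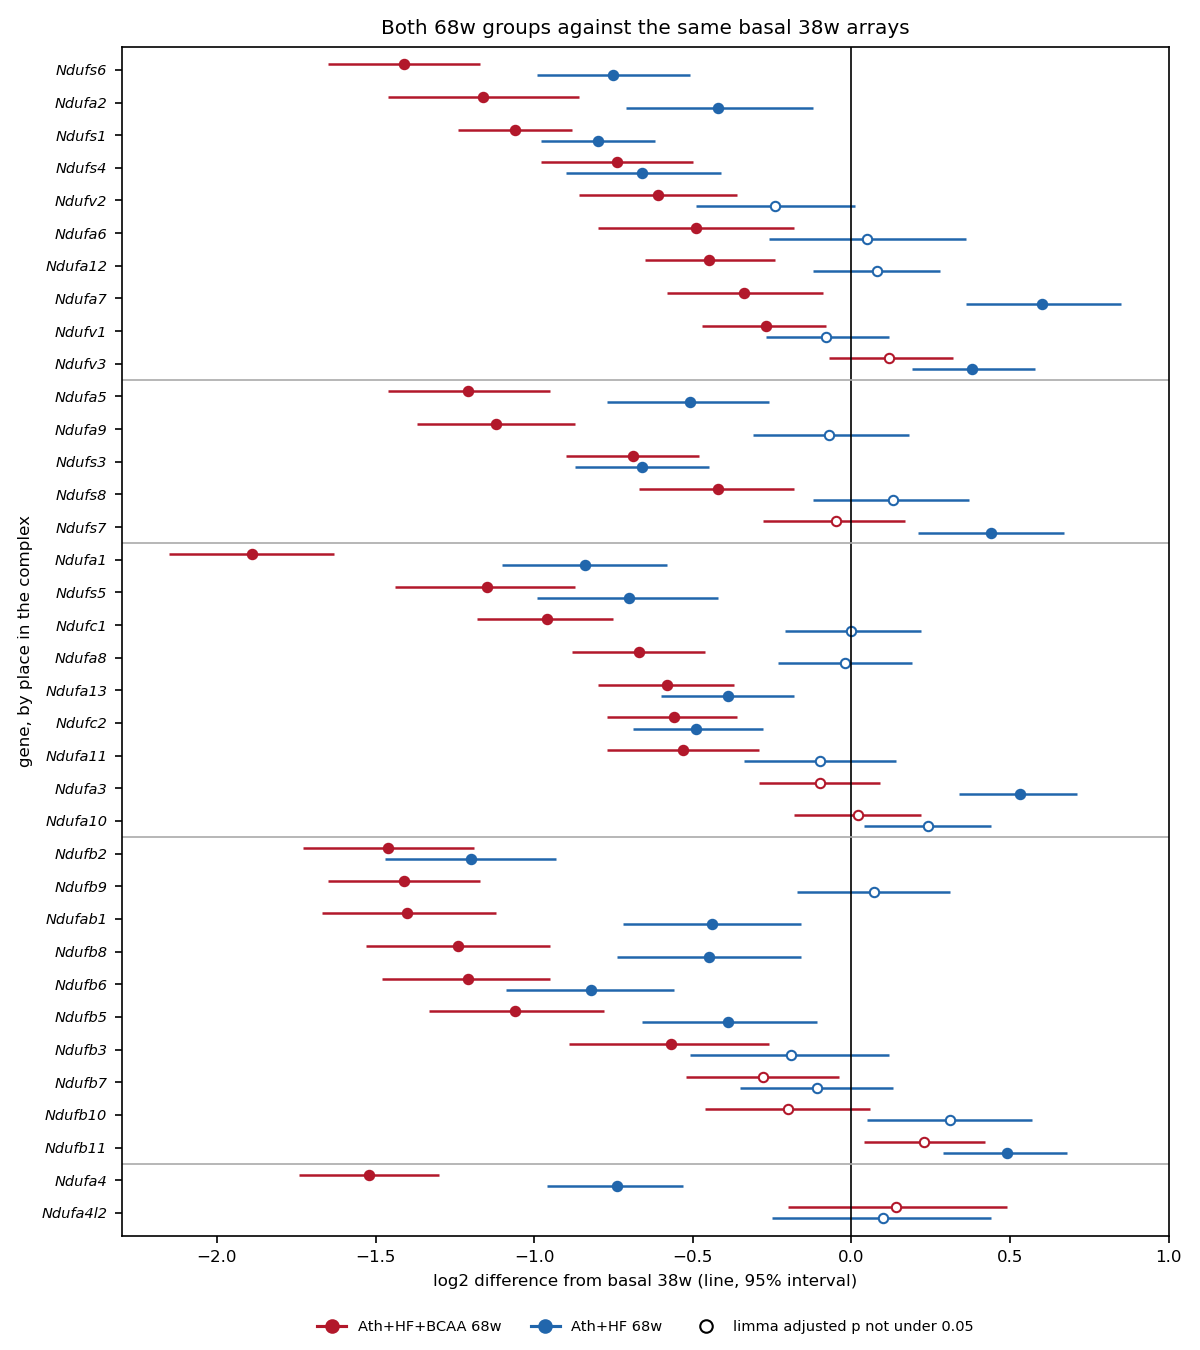
Log2 difference of each complex I gene (vertical axis, modules apart) from the same basal 38w arrays in the Ath+HF+BCAA 68w arrays (red) and Ath+HF 68w (blue), with 95% intervals from limma and open points where the adjusted p was not under 0.05. The red points lie left of the blue ones for every gene but Ndufa4l2, with Ndufs3 at -0.69 and -0.66 side by side and Ndufb9 at -1.41 and 0.07 far apart.

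Between the 68w groups themselves, 26 of the 36 genes were lower in the Ath+HF+BCAA 68w arrays than in the Ath+HF 68w arrays and 0 were higher, where 16.4% of all genes were called lower and 19.8% higher by limma. The median was -0.50 for the members, against -0.09 for all genes. With dim genes left out, 2283 of 9969 genes were called lower and 3191 higher. The median was then -0.51 for the 35 members left and 0.04 for the genes left. For 29 members the arrays of both groups did not overlap, against 32.8% of all genes that lay wholly lower. The share by module was 8 of 10 in the N module, 4 of 5 in the Q module, 6 of 9 in the proximal arm and 7 of 10 in the distal arm. In the same comparison 11 of 12 macrophage and 9 of 10 stellate cell markers were called higher, and 3 of 12 hepatocyte markers lower, with a hepatocyte median of -0.08. The hepatocyte markers ran from -0.48 to 0.15. For 5 of them the Ath+HF+BCAA 68w arrays lay wholly lower, and for 1 wholly higher.

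The largest difference was that of Ndufb9, with 10.06, 9.85 and 10.27 in the Ath+HF+BCAA 68w arrays and 11.56, 11.61 and 11.45 in the Ath+HF 68w arrays. It stood at 35.8% of the Ath+HF 68w level (log2 difference -1.48, SE 0.11, limma adjusted p = 9e-08). Ndufa9, a Q module subunit that binds NADPH, measured 9.56, 9.49 and 9.96 against 10.73, 10.74 and 10.70 (-1.05, SE 0.12, limma adjusted p = 3.95e-06). For both genes the Ath+HF+BCAA 68w arrays lay below all other 12 arrays, which were close to each other. Ndufc1 of the proximal arm was at -0.96 (SE 0.10, limma adjusted p = 2.26e-06) and Ndufa7 of the N module at -0.94 (SE 0.12, limma adjusted p = 1.11e-05). Ndufa4 was at -0.78 (SE 0.10, limma adjusted p = 2.2e-05).

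Of the core subunits, Ndufs8 (-0.55), Ndufs7 (-0.49), Ndufv2 (-0.37) and Ndufs1 (-0.26) were called lower. Ndufs7 measured 12.08, 11.94 and 12.33 in the Ath+HF+BCAA 68w arrays, a level that overlapped with basal 38w, and its difference lay against the raised Ath+HF 68w arrays. The smaller differences depended on the arrays or their scaling. Ndufs1 lost its call without Ath+HF 68w replicate 1 or 3 (adjusted p = 0.0785 and 0.0534) or Ath+HF+BCAA 68w replicate 1 or 2 (0.0614 and 0.0964). Ndufv2 lost it without Ath+HF 68w replicate 1 or 2 (0.0568 and 0.087) or Ath+HF+BCAA 68w replicate 1 or 2 (0.06 and 0.0766), and with quantile normalization (-0.26, adjusted p = 0.0872). Ndufs3 was at -0.03 (95% interval -0.24 to 0.19) and Ndufv1 at -0.20 (-0.39 to 0.00), and the accessory subunits Ndufs4 (-0.08, -0.33 to 0.16), Ndufc2 (-0.08, -0.28 to 0.13) and Ndufb7 (-0.17, -0.41 to 0.07) were likewise not called. Ndufa4l2 was at 0.05 (-0.30 to 0.39).

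**Figure D3:**
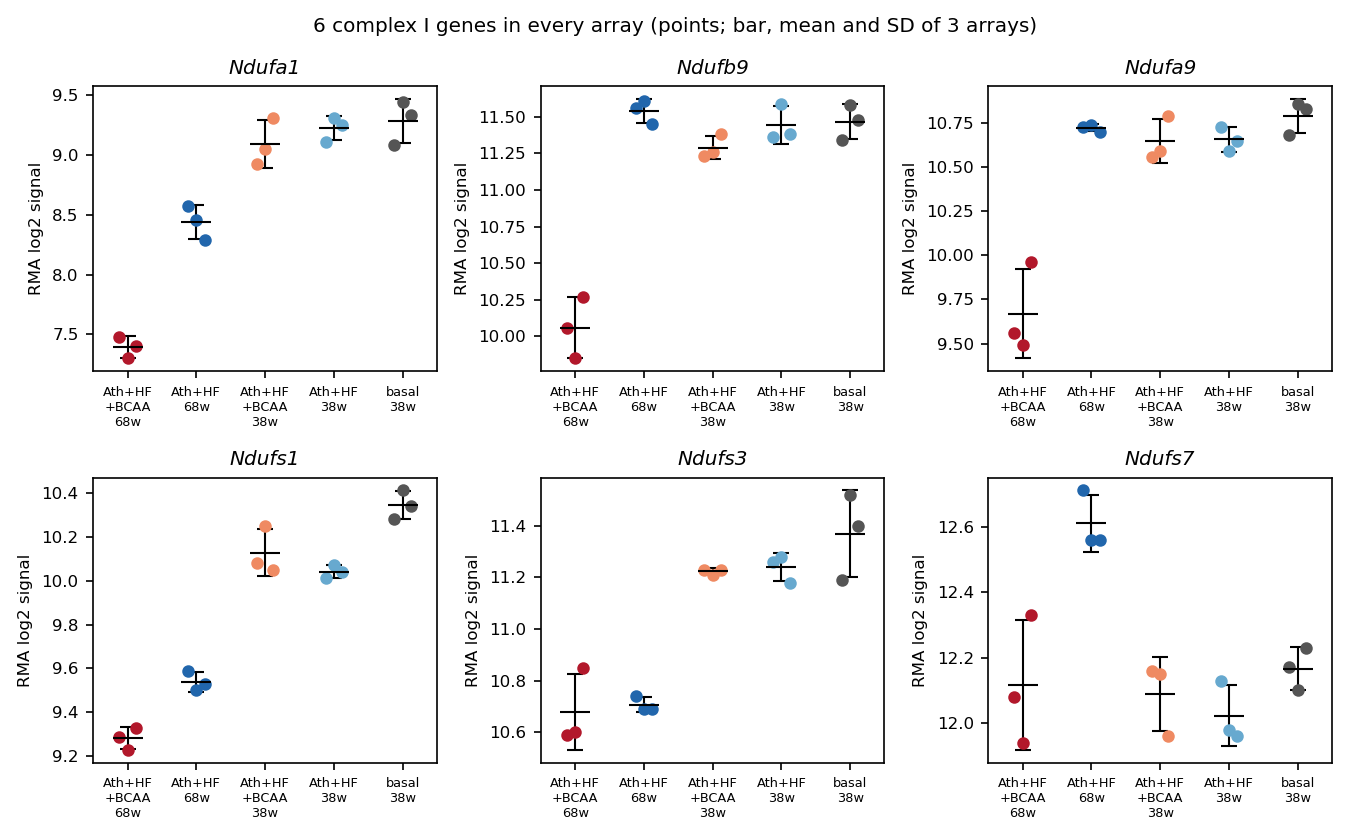
RMA log2 signal (vertical axis) of 6 complex I genes in every array of the 5 labelled groups (horizontal axis), with points for arrays and bars for the mean and SD of 3 arrays. Ndufa1 and Ndufs1 are lower in both 68w groups than in any 38w array, Ndufb9 and Ndufa9 are low in the Ath+HF+BCAA 68w arrays alone, Ndufs3 is alike in both 68w groups, and Ndufs7 is highest in the Ath+HF 68w arrays.

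No complex I gene was called between the supplemented and unsupplemented diet at 38w. Ath+HF+BCAA 38w against Ath+HF 38w arrays gave 0 members lower and 0 higher by limma, as it did for 0% of all genes in either direction, while an unadjusted p under 0.05 was reached by 1 member, Ndufa4l2, and 1528 genes. The analysis of variance of the study's methods, after Bonferroni, called 0 members too. The median was -0.01, and the differences ran from -0.37 in Ndufa4l2 (95% interval -0.72 to -0.03) to 0.18 in Ndufb3 (-0.14 to 0.50). For the core subunits the intervals reached no lower than -0.34, the bound of Ndufs8, and no higher than 0.29, that of Ndufs7.

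The difference between these effects was tested itself, as the log2 difference of Ath+HF+BCAA from Ath+HF at 68w minus that at 38w. It was called lower for 16 of the 36 genes and higher for 0, where 7.67% of all genes were called lower and 12.9% higher by limma, with a median of -0.52 against -0.05 for all genes. Ndufb9 had the largest, at -1.33 (SE 0.16, limma adjusted p = 2.85e-05), followed by Ndufa9 at -1.04 (SE 0.17, limma adjusted p = 0.000297) and Ndufc1 at -0.98 (SE 0.14, limma adjusted p = 0.000157). Ndufs7 was the core subunit that was called (-0.55, SE 0.15, limma adjusted p = 0.0165), and without Ath+HF+BCAA 68w replicate 2 it was at -0.47 and not called (adjusted p = 0.0532). Ndufs8 (-0.46), Ndufv2 (-0.35), Ndufs1 (-0.34), Ndufv1 (-0.21) and Ndufs3 (-0.01) were not called.

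**Figure D4:**
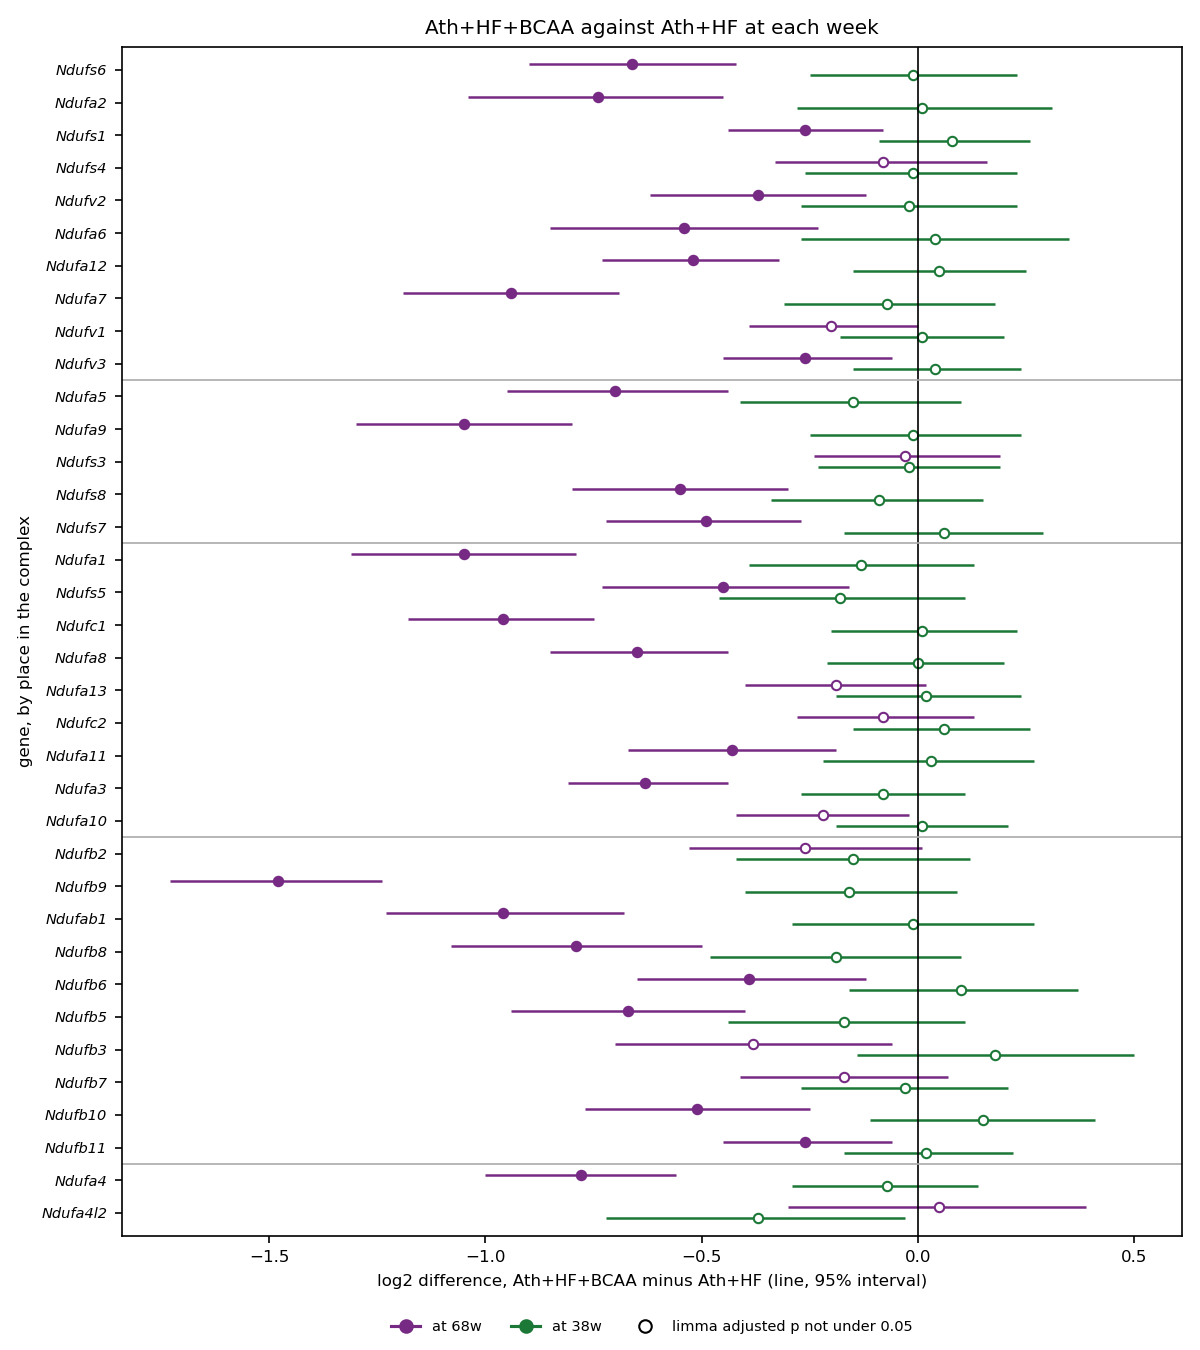
Log2 difference of the Ath+HF+BCAA arrays from the Ath+HF arrays for each complex I gene (vertical axis, modules apart) at 68w (purple) and at 38w (green), with 95% intervals from limma and open points where the adjusted p was not under 0.05. The 38w points scatter around 0 between -0.37 and 0.18, while 26 of the 68w points are filled and lie below 0.

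Between the ages, the Ath+HF+BCAA 68w arrays had 23 members lower and 2 higher than the Ath+HF+BCAA 38w arrays, where 18.3% of all genes were called lower and 20.5% higher by limma. The median was -0.46 for the members and 0.03 for all genes. Ndufa1 measured 7.48, 7.30 and 7.40 in the 68w arrays, against 8.92, 9.05 and 9.31 in the 38w arrays, wholly apart (-1.70, SE 0.12, limma adjusted p = 1.63e-07). Ndufb9 was at -1.23, Ndufs6 at -1.17 and Ndufs1 at -0.84. The 2 higher genes were Ndufb11 (0.39, limma adjusted p = 0.00333, but 0.24 and adjusted p = 0.073 with array medians set equal) and the dim Ndufa4l2 (0.63, limma adjusted p = 0.00606), whose 38w arrays measured 6.13, 6.58 and 5.90.

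Without the supplement, members were called in both directions, in shares close to those of all genes when dim genes were included. The arrays labelled Ath+HF 68w had 8 members lower and 8 higher than the Ath+HF 38w arrays, where 20% of all genes were called lower and 17.6% higher by limma, and the median of the members was 0.09 with the deposited scaling and -0.02 with array medians set equal, when 5 were higher. Without dim genes, 3642 of 9969 genes were called lower and 1674 higher. Their median was -0.13, against 0.09 for the 35 members left. Ndufb11 of the distal arm measured 11.45, 11.47 and 11.38 in the 68w arrays, against 10.84, 10.73 and 10.71 in the 38w arrays, without overlap (0.67, SE 0.09, limma adjusted p = 7.07e-05). Ndufa7 (0.74), Ndufs7 (0.58) and Ndufa3 (0.56) were also higher. Ndufs1 (-0.50), Ndufs3 (-0.54) and Ndufa4 (-0.54) were among the lower genes, and Ndufv1, Ndufv2 and Ndufs8 were not called. In the same comparison all 12 macrophage markers were called lower (median -1.90), as were 7 of 10 stellate cell markers and 0 higher. The part of these cells in the values was not tested.

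At 38w few members differed from basal diet. In the Ath+HF+BCAA 38w arrays 3 of the 36 were lower and 0 higher, where 1.82% of all genes were called lower and 3.67% higher by limma, with a median of -0.19 against -0.01 for all genes. In the Ath+HF 38w arrays 4 were lower and 0 higher, where the shares of all genes were 1.18% and 3.05%, with a median of -0.16 against 0.00 for all genes. Ndufab1, the acyl carrier protein, measured 9.91, 10.25 and 9.75 in Ath+HF+BCAA 38w and 9.97, 9.98 and 9.99 in Ath+HF 38w arrays, all below the basal 10.48, 10.30 and 10.78 (-0.55, limma adjusted p = 0.0221, and -0.54, limma adjusted p = 0.028). Ndufs5, a proximal arm subunit on the intermembrane space side, was at -0.67 (SE 0.13, limma adjusted p = 0.00783) in Ath+HF+BCAA 38w and -0.50 (SE 0.13, limma adjusted p = 0.049) in Ath+HF 38w arrays. Ndufb2 (-0.45, limma adjusted p = 0.0497) was called in the Ath+HF+BCAA 38w arrays, and Ndufb3 (-0.66, limma adjusted p = 0.0202) and Ndufb10 (-0.48, limma adjusted p = 0.0379) in the Ath+HF 38w arrays. No core subunit was called in either, with Ndufs1 at -0.22 (limma adjusted p = 0.154) and -0.30 (limma adjusted p = 0.0546). These counts rested on single arrays. The count of 4 was 0 without basal 38w replicate 3 or Ath+HF 38w replicate 1, 1 without basal 38w replicate 2 or Ath+HF 38w replicate 2 or 3, and 2 without basal 38w replicate 1, and the count of 3 was 1 without basal 38w replicate 3 or Ath+HF+BCAA 38w replicate 1. Of the 12 macrophage markers, 10 were called higher than in basal 38w arrays in each of these groups, and their part in these values was not tested.

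**Figure D5:**
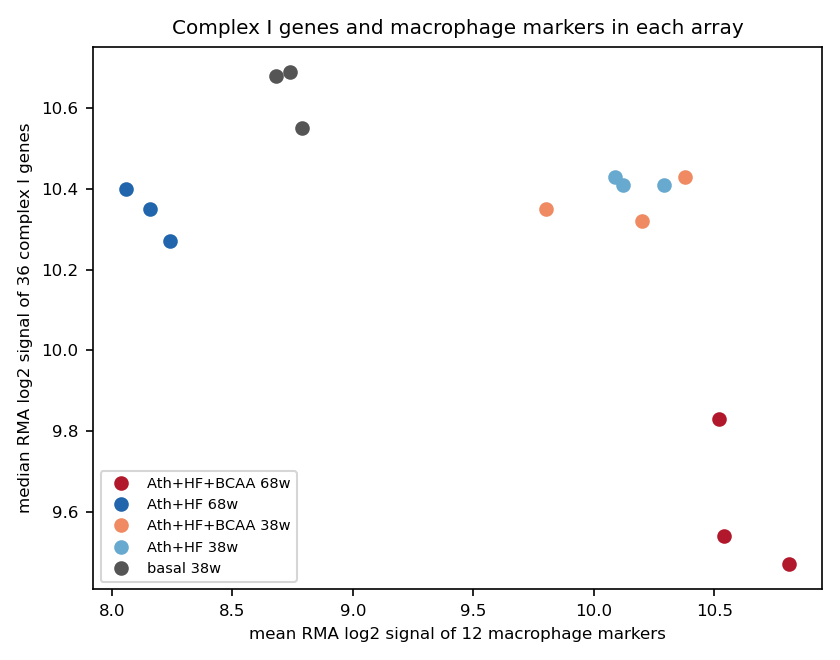
Median RMA log2 signal of the 36 complex I genes (vertical axis) against the mean RMA log2 signal of 12 macrophage markers (horizontal axis), a point for each array, colored by labelled group. The Ath+HF+BCAA 68w arrays have macrophage markers at 10.52 to 10.81 with complex I medians of 9.47 to 9.83, while the arrays of both 38w Ath+HF groups have 9.80 to 10.38 with medians of 10.32 to 10.43.

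The genes that build complex I or work beside it were read from lists of known genes. ND3, the membrane core subunit of mitochondrial DNA that was measured under a single symbol, was 12.72, 12.88 and 12.40 in the Ath+HF+BCAA 68w arrays, against 13.02, 13.04 and 13.14 in the Ath+HF 68w arrays and 13.02, 13.18 and 12.91 in basal 38w arrays. It was called lower in the Ath+HF+BCAA 68w arrays, at -0.38 against basal 38w (SE 0.12, limma adjusted p = 0.0166) and -0.40 against Ath+HF 68w (SE 0.12, limma adjusted p = 0.0144), and was not called in the Ath+HF 68w arrays against basal 38w (0.03). Of 18 assembly factors, which build the complex and are not part of it, 13 fell and 0 rose in the Ath+HF+BCAA 68w arrays against basal 38w (median -0.74). In the Ath+HF 68w arrays 13 fell and 1 rose (median -0.56). Of all genes, 21.8% were lower and 22.9% higher in the Ath+HF+BCAA 68w arrays, and 19.1% lower and 19% higher in the Ath+HF 68w arrays. Of the 9969 genes that were not dim, 3431 and 3481 were lower in these groups, in that order, and 2974 and 1837 higher. Dmac1, needed for the distal arm, measured 8.79, 8.89 and 8.90 in the Ath+HF+BCAA 68w arrays and 9.39, 9.36 and 9.46 in the Ath+HF 68w arrays, against 10.26, 10.50 and 10.55 in basal 38w arrays, so that the 3 groups followed each other without overlap. Tmem126b of the intermediate assembly complex was at -1.31 in the Ath+HF+BCAA 68w arrays and -0.79 in the Ath+HF 68w arrays against basal 38w. Between the 68w groups 8 assembly factors were lower and 2 higher in the Ath+HF+BCAA 68w arrays, where 16.4% of all genes were lower and 19.8% higher, with Tmem70 (-0.67, SE 0.10, limma adjusted p = 5e-05) and Dmac1 (-0.54) lower and Acad9, an assembly factor related to the acyl-CoA dehydrogenases, higher (0.52, SE 0.09, limma adjusted p = 0.000354). At 38w 0 of the 18 were called against basal diet in either group, where 1.18% to 3.67% of all genes were called in each direction.

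The other respiratory complexes and ATP synthase followed a like course. Of 46 nuclear genes of complexes II to V, 32 were lower and 2 higher in the Ath+HF+BCAA 68w arrays than in basal 38w arrays by limma (median -0.53), 17 lower and 7 higher in the Ath+HF 68w arrays (median -0.17), and 30 lower and 0 higher between the 68w groups (median -0.41). Of all genes, 21.8% were lower and 22.9% higher in the first of these comparisons, 19.1% and 19% in the second, and 16.4% and 19.8% in the third. The 7 higher genes thus lay below the share of all genes. Of the 9969 genes that were not dim, 3431 were lower in the first comparison, 3481 in the second and 2283 in the third. The 17 lower genes, 37% of the 46, lay near that share in the second. Dim genes among the 46 were not left out of their counts. Cox5a of complex IV was at -1.24 and Atp5g3, a c subunit of ATP synthase, at -1.35 in the Ath+HF+BCAA 68w arrays against basal 38w. In the Ath+HF 68w arrays, Uqcrfs1, the Rieske iron-sulfur protein of complex III, was at -1.02, whereas Atp5g2, another c subunit, was at 1.05 (limma adjusted p = 4.01e-06). Of 15 regulators of mitochondrial biogenesis, 8 fell and 1 rose in the Ath+HF+BCAA 68w arrays, and 4 fell and 3 rose in the Ath+HF 68w arrays, where the shares were near those of all genes. Tfam, which packages and transcribes mitochondrial DNA, measured 7.12, 7.23 and 7.14 in the Ath+HF+BCAA 68w arrays and 8.00, 8.02 and 7.76 in the Ath+HF 68w arrays, against 8.94, 9.13 and 8.79 in basal 38w arrays. The 3 groups did not overlap, and Tfam was at -1.78 in the Ath+HF+BCAA 68w arrays (SE 0.11, limma adjusted p = 1.49e-08) and -1.02 in the Ath+HF 68w arrays (SE 0.11, limma adjusted p = 2.1e-05) against basal 38w. Other regulators lay higher in the Ath+HF 68w arrays. There Ppargc1a measured 9.37, 9.04 and 9.32, against 8.86, 8.77 and 8.14 in basal 38w arrays. Pprc1 measured 8.00, 7.83 and 7.74 against 7.25, 7.22 and 7.31, and Ppargc1b 8.41, 8.48 and 8.36 against 7.94, 7.91 and 8.23. Of 16 import, chaperone and carrier genes, 12 fell in the Ath+HF+BCAA 68w arrays and 8 in the Ath+HF 68w arrays, and 0 rose. The outer membrane channel Vdac3 was at -0.89 in the Ath+HF+BCAA 68w arrays and -0.45 in the Ath+HF 68w arrays against basal 38w.

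Promoters are shown for 4 members that took different courses, since factors known to control respiratory genes bind near their starts. RefSeq windows of GRCm38.p6, 250 bases before to 50 after the start, were held for 32 of the 36 members, with 34 windows in all. The others were Ndufs1, Ndufb9, Ndufa2 and Ndufa4l2. Ndufa9 (chr6:126849095-126849394, minus strand) and Ndufc1 (chr3:51408906-51409205, minus strand) were lower in the Ath+HF+BCAA 68w arrays and not called in the Ath+HF 68w arrays. Ndufs7 (chr10:80249199-80249498, plus strand) was higher in the Ath+HF 68w arrays, and Ndufs3 (chr2:90904672-90904971, minus strand) was lower in both 68w groups. The capitals mark the letters AAGATGG of the YY1 core in Ndufa9, Ndufc1 and Ndufs7, and the letters CCGGAAG of the ETS core, on either strand, in Ndufs3.
Ndufa9: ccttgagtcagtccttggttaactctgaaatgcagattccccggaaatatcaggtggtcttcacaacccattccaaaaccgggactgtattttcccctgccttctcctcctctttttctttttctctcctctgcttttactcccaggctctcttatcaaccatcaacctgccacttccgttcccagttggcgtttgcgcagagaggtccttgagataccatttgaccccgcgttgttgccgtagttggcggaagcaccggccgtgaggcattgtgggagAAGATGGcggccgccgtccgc
Ndufc1: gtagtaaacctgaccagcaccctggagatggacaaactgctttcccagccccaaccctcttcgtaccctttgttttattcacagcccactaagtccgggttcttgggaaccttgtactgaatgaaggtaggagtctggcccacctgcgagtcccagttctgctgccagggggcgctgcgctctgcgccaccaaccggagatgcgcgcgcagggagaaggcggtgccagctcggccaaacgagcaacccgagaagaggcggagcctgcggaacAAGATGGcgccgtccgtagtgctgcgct
Ndufs7: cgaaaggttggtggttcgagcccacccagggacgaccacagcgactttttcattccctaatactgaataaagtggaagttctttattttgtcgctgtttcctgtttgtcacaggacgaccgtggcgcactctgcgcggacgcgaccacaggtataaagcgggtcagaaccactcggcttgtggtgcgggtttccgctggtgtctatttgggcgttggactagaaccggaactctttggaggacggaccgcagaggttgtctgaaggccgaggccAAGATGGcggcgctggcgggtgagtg
Ndufs3: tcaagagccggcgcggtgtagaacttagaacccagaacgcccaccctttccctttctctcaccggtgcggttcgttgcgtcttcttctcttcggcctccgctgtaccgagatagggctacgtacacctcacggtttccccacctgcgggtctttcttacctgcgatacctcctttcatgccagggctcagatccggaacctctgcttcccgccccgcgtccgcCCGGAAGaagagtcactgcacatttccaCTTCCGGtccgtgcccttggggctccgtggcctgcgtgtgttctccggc

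Searched on both strands, the YY1 core AAGATGG was in 20.6% of the members' windows, against 6.34% of all 32851 windows of this length. The members were Ndufa3, Ndufa9, Ndufb8, Ndufc1, Ndufs4, Ndufs6 and Ndufs7. These 7 did not move alike. Ndufa9, Ndufc1, Ndufb8 and Ndufs6 were lower in the Ath+HF+BCAA 68w arrays than in both the Ath+HF 68w and basal 38w arrays, Ndufs4 than in basal 38w arrays, and Ndufa3 and Ndufs7 than in Ath+HF 68w arrays. In Ndufs7 the YY1 letters begin 24 bases after the start, in Ndufa9 29 and in Ndufc1 22. The NRF1 core GCGCATGC was in 8.82% of the members' windows against 2.71% of all windows, the ETS core CCGGAAG in 11.8% against 8.86%, and the ERR site AAGGTCA in 5.88% against 4.72%. No member window held more than 1 of these 4 motifs, so none overlapped with another. A match describes letters and does not show that a factor binds.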

How the data were processed

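RNA of 15 mouse liver samples was measured on GeneChip Mouse Gene 1.0 ST arrays. The authors deposited log2 values that, per the submitters' processing notes, come from RMA in Affymetrix Expression Console (version not given in the sources). They were used without further normalization. Samples were grouped by the array labels. No pair of arrays was identical (highest r 0.993), and array medians were 6.91 to 7.16. The number of arrays limits the precision.

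Transcript clusters were named through the platform's annotation. Of 35556 clusters, 21789 had 1 symbol, 1621 several and 12146 none, and those with several or none were left out. Of 999 genes with several clusters, including 5 members, the brightest by mean was used. limma 3.58.1 (R 4.3.3) fitted 1 coefficient per group to all 15 arrays with lmFit and eBayes (10 residual degrees of freedom). The 9 comparisons were each adjusted over 19938 genes. The fit was tested on simulated data. The members and gene lists were chosen with earlier results of these data known. Genes named with values are the core subunits, the matches outside complex I, the genes with the smallest and largest p of each module in a comparison, and up to 3 called genes of other lists with the smallest p. Ndufs6, Ndufab1, Ndufb11, Ndufa3, Ndufv3, Ndufb10 and Ndufb2 were also named in other comparisons, for small counts or after their values were seen. Ppargc1a, Pprc1 and Ppargc1b were named after their values were seen.

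Alternatives were equal array medians, quantile normalization, the mean of a gene's clusters, no dim genes (mean under 7.38), a robust variance trend, array weights, a replicate block, the compared groups alone, leaving out each array, the analysis of variance of the study's methods (Bonferroni over 10 pairs of groups), and a fold over 1.5 with P under 0.005.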

Additional observations from a re-analysis of the deposited data

Results flagged for a closer look

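By the labels of the arrays, the effect of the supplement differed between 68w and 38w for 16 members. They were called from the limma test of that difference over all genes, at an adjusted p under 0.05. All 16 were called lower, where 7.67% of all genes were called lower and 12.9% higher. The values are the log2 difference of Ath+HF+BCAA from Ath+HF arrays at 68w minus that at 38w. In the matrix arm they were -0.76 for Ndufa2, -0.58 for Ndufa12, -0.87 for Ndufa7 and -0.64 for Ndufs6 of the N module, and -0.54 for Ndufa5, -1.04 for Ndufa9 and -0.55 for Ndufs7 of the Q module. In the proximal arm they were -0.92 for Ndufa1, -0.55 for Ndufa3, -0.64 for Ndufa8 and -0.98 for Ndufc1. In the distal arm they were -0.95 for Ndufab1, -0.60 for Ndufb8, -1.33 for Ndufb9 and -0.66 for Ndufb10, and Ndufa4, now assigned to complex IV, was at -0.71. Macrophage markers moved with the same difference, with 11 of 12 called higher (median 2.40), against 12.9% of all genes. Their part in it was not tested.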

How the results depend on the processing

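With equal array medians, the median of the members turned to -0.02 in Ath+HF 68w against Ath+HF 38w and to 0.03 in Ath+HF+BCAA 38w against Ath+HF 38w (0.01 with quantile normalization), and kept its sign in the other comparisons. Equal array medians gave 3 members higher in Ath+HF 68w than in basal 38w arrays, 5 higher in Ath+HF 68w than in Ath+HF 38w, and 1 higher in Ath+HF+BCAA 68w than in Ath+HF+BCAA 38w arrays, as did leaving out dim genes and the analysis of variance with Bonferroni's method. Leaving out dim genes removes Ndufa4l2 (mean 6.62), 1 of the 2 higher members in that last comparison, so its drop says nothing about the call. A fold over 1.5 with P under 0.005 left 1 member higher and 9 lower in Ath+HF 68w than in basal 38w arrays. In Ath+HF+BCAA 68w against basal 38w, 1 member was higher with quantile normalization, without dim genes or with a robust variance trend (0 to 1 when leaving out an array). In Ath+HF 38w against basal 38w, 2 members were lower with array weights and 1 with these groups alone (0 to 4 when leaving out an array), and in Ath+HF+BCAA 38w against basal 38w, 5 were lower without dim genes and 1 with these groups alone (1 to 4 when leaving out an array). The BCAA effect at 68w minus that at 38w was lower for 26 members with array weights. Of all 19938 genes, 2220 were then called lower, against 1530 in the main fit. This effect was higher for 0 to 1 members when leaving out an array. Leaving out an array gave 25 to 29 members lower in Ath+HF+BCAA 68w than in basal 38w arrays and 19 to 27 lower than in Ath+HF 68w arrays. Apart from the removal of Ndufa4l2, the causes of these changes were not tested.

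Same-numbered arrays of different groups did not deviate together (correlations of -0.156 to 0.183, 3 of 30 pairs over 0.1), so the replicate numbers give no pairing. With the replicate number as a block, 2 members were lower in Ath+HF 38w than in basal 38w arrays, and the other counts stayed within 1.5 times. Of the 139 calls of members over all comparisons, 106 were kept under all alternatives run on single genes and 0 reversed. The call of Ndufa4l2 is counted as kept, although it could not be tested without dim genes. All 4 calls in Ath+HF 38w against basal 38w were lost under at least 1 alternative, as were 2 of the 3 in Ath+HF+BCAA 38w against basal 38w, 7 of the 26 between the 68w groups and 3 of the 28 in Ath+HF+BCAA 68w against basal 38w. In Ath+HF 68w, 6 of the 21 calls against basal 38w and 4 of the 16 against Ath+HF 38w were lost. In Ath+HF+BCAA 68w, 4 of the 25 against Ath+HF+BCAA 38w were lost. Of the 16 calls of the BCAA effect at 68w minus that at 38w, 3 were lost.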
